A study of Homo sapiens with 6 samples.

Results

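The 10 genes described here encode core enzymes of the glutathione and thioredoxin systems and the transcription factor that controls many of them. They are GCLC, GCLM, GSR, GPX4, TXN, TXNRD1, SRXN1, NQO1, PRDX1 and NFE2L2, taken by symbol, and all 10 were among the 11363 genes measured. RNA was sequenced from NOMO-1, an established human cell line from a monocytic acute myeloid leukaemia with a KMT2A-MLLT3 fusion. The groups were NOMO-1 cells with a knockout of MSLN, the mesothelin gene (MSLN-KO, 3 libraries), and parental NOMO-1 cells without it (WT, 3 libraries). Both groups are the same line, and the labels name no treatment. How the knockout was made, and whether the MSLN-KO cells are 1 clone, is not given in the sources used here. Nothing in the labels says that the replicates were separate cultures, so p-values reflect the spread among these libraries alone, and part or all of it may be technical.

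Glutathione is a small thiol made in a rate-limiting step by glutamate-cysteine ligase, whose catalytic subunit is GCLC and whose modifier subunit is GCLM. Glutathione reductase (GSR) keeps it reduced with NADPH, and GPX4 spends it to reduce lipid peroxides in membranes, which protects cells from ferroptosis. In the thioredoxin system, TXNRD1 uses NADPH to reduce thioredoxin (TXN), which in turn serves peroxiredoxins such as PRDX1, while SRXN1 repairs overoxidized peroxiredoxins. NQO1 reduces quinones, and the factor NRF2, encoded by NFE2L2, binds antioxidant response elements at many of these genes when it escapes its inhibitor KEAP1. GPX4 and TXNRD1 are selenoproteins.

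Depth was between 23665824 and 30804446 reads in the listed genes per library, and each of the 10 genes had between 492 and 8491 reads in every library. MSLN itself stood at 45.7, 46.9 and 45.3 CPM in MSLN-KO, against 153.2, 122.9 and 105.9 CPM in WT. CPM are TMM-normalized read counts scaled to library size. Every MSLN-KO library lay below every WT library for MSLN. In the mean MSLN-KO held 36.1% of the WT level, so MSLN RNA was not absent. All 10 markers fixed for monocytic leukaemia were measured, and in the fit described below 3 were higher, 6 lower and 1 not called (SPI1). The rises were of FCGR1A, CEBPA and CD33, with log2 changes between 0.39 and 0.78. Among the falls, MPO, the myeloperoxidase gene, had 45.7 CPM in MSLN-KO and 744.4 CPM in WT, and LYZ, the lysozyme gene, 6081 CPM in MSLN-KO and 14540 CPM in WT; these markers are named after their values were seen. Of 24 markers fixed for other cell types 4 were measured, NKG7, CD79B, KRT18 and PECAM1, and the other 20 were not analysed here. Whether the RNA of these 4 came from such cells or from NOMO-1 cells themselves was not tested. The summed level of the 4 was 419.3 to 433.3 CPM in MSLN-KO libraries and 562.3 to 597.5 CPM in WT libraries. Most of that sum was PECAM1 (382.8 CPM in MSLN-KO and 517.6 CPM in WT), and KRT18 was not called. CD79B (3.93 CPM in MSLN-KO and 14.4 CPM in WT) reached the 4.9 CPM minimum of the table in WT only. It had to be higher there to be measured. The part of all these markers in the results was not tested. In bulk RNA, fewer cells of a type and less RNA per cell cannot be told apart.

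Among the 10 genes, 5 fell in MSLN-KO (NQO1, TXNRD1, PRDX1, GCLC and GSR), 1 rose (GPX4) and 4 were not called (NFE2L2, GCLM, TXN and SRXN1). Calls come from a limma fit over all 11363 genes, at a threshold of 0.05 on the p adjusted by Benjamini-Hochberg. Of all genes, 45.7% were called, 22.4% higher and 23.3% lower, so a call of some kind was common in this comparison. The median log2 change of the 10 genes was -0.15, beside 0.01 for all genes. The groups did not overlap for 7 of the 10, with MSLN-KO above WT for 2 and below for 5. Over all genes, 54.7% did not overlap, 26.6% with MSLN-KO above and 28.1% with MSLN-KO below. The calls of GPX4, TXNRD1, NQO1 and PRDX1 held under all 14 alternative settings tried, and those of GCLC and GSR did not.

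**Figure D1:**
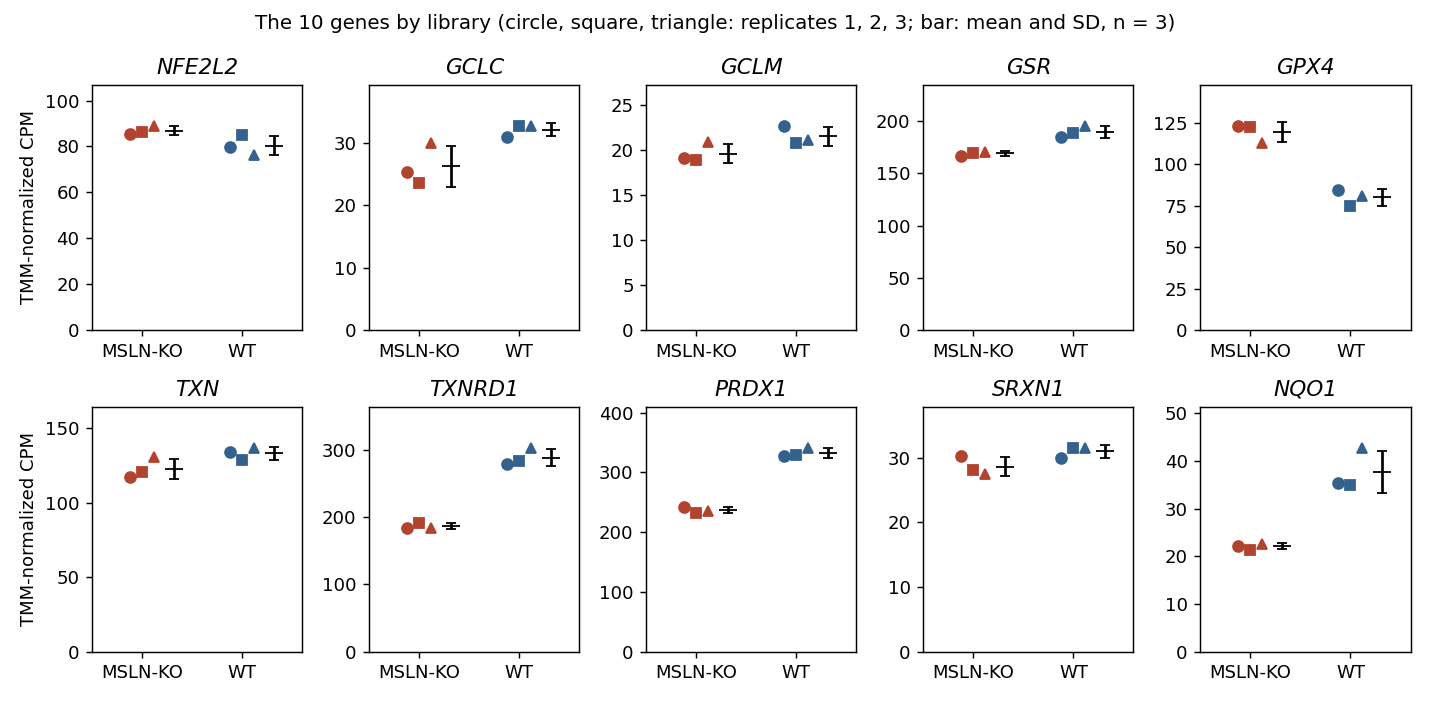
TMM-normalized CPM of each of the 10 genes in every library, MSLN-KO left and WT right, with axes that start at 0; symbols are replicates 1 to 3 and the bar is the mean with its SD (n = 3). GPX4 lies higher in every MSLN-KO library, NQO1, TXNRD1 and PRDX1 lie clearly lower, and TXN, SRXN1 and GCLM overlap between the groups.

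NFE2L2, the gene of NRF2 (ENSG00000116044.16, GRCh38 chromosome 2, 177227595 to 177392697), had 85.4, 86.4 and 89.0 CPM in MSLN-KO, against 79.6, 84.9 and 76.4 CPM in WT. The groups did not overlap, but MSLN-KO replicate 1 and WT replicate 2 were less than 1 CPM apart. Its log2 change was 0.11 (SE 0.06, 95% interval -0.01 to 0.24, limma adjusted p = 0.13). Without WT replicate 2 it was called (0.15, limma adjusted p = 0.040), and the adjusted p ran from 0.040 to 0.37 across the alternatives. Exons of NFE2L2 overlap those of AGPS on the opposite strand, which rose by 0.28 on the log2 scale (limma adjusted p = 0.0014), and the strand setting of the counting is not given in the sources used here. NFE2L2 also shares exon positions on its own strand with a short listed gene, ENSG00000213963.6, which had a log2 change of 0.25 (limma adjusted p = 0.066).

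In the synthesis and recycling of glutathione the changes were small. The catalytic subunit gene GCLC (ENSG00000001084.13, chromosome 6, 53497341 to 53616970) had 25.4, 23.6 and 30.0 CPM in MSLN-KO, against 31.0, 32.7 and 32.8 CPM in WT. All MSLN-KO libraries were lower, with replicate 3 within about 1 CPM of the lowest WT library. MSLN-KO held 81.8% of the WT level (log2 change -0.29, SE 0.08, limma adjusted p = 0.015). The call was lost without MSLN-KO replicate 1 (limma adjusted p = 0.060), without MSLN-KO replicate 2 (0.074) and without WT replicate 3 (0.054), and the adjusted p ran from 0.0015 to 0.074 across the alternatives.

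Its partner GCLM (ENSG00000023909.10, chromosome 1, 93885205 to 93909456) had 19.1, 18.8 and 20.8 CPM in MSLN-KO, against 22.7, 20.7 and 21.1 CPM in WT. The groups overlapped. The log2 change was -0.13 with a 95% interval of -0.29 to 0.04 (limma adjusted p = 0.19). The ratio of GCLM to GCLC in CPM was 0.749 ± 0.051 in MSLN-KO and 0.669 ± 0.054 in WT (SD, n = 3 each). On the log2 scale the ratio differed by 0.16 between MSLN-KO and WT (exact permutation test, two-sided, p = 0.20, where 3 libraries against 3 allow no p below 0.10).

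GSR (ENSG00000104687.14, chromosome 8, 30678061 to 30727999) had 166.7, 169.8 and 170.7 CPM in MSLN-KO, against 184.8, 188.8 and 195.5 CPM in WT. The groups did not overlap, and MSLN-KO held 89.1% of the WT level (log2 change -0.17, SE 0.05, limma adjusted p = 0.017). The call was lost without MSLN-KO replicate 1 (limma adjusted p = 0.080), without WT replicate 3 (0.074) and with columns rescaled to their totals (0.058), and the adjusted p ran from 0.017 to 0.22 across the alternatives. The highest of these came with the regional median subtracted, where the log2 change was -0.08. The other listed genes within 5 Mb of GSR had a median log2 change of -0.09.

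GPX4 was the gene of the 10 that rose. The lipid peroxide reductase gene (ENSG00000167468.19, chromosome 19, 1103926 to 1106791) had 123.4, 122.7 and 112.9 CPM in MSLN-KO, against 84.8, 74.7 and 80.8 CPM in WT. Its lowest MSLN-KO library was well above its highest WT library, and the fold was 1.49 (log2 change 0.57, SE 0.06, 95% interval 0.44 to 0.71, limma adjusted p = 9.3e-06). A change of this size or larger, in either direction, was seen in 10.5% of all genes. Its 121 listed neighbours within 5 Mb had a median log2 change of 0.09.

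In the thioredoxin system the reductase gene and PRDX1 fell, and the genes of thioredoxin itself and of SRXN1 were not called. TXNRD1 (ENSG00000198431.17, chromosome 12, 104215779 to 104350305) had 184.4, 191.4 and 184.1 CPM in MSLN-KO, against 279.0, 284.1 and 303.9 CPM in WT. Every MSLN-KO library was below every WT library by more than the spread within either group. MSLN-KO held 64.6% of the WT level (log2 change -0.63, SE 0.05, 95% interval -0.74 to -0.51, limma adjusted p = 9.1e-07).

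TXN (ENSG00000136810.13, chromosome 9, 110243811 to 110256640) had 117.0, 120.4 and 130.3 CPM in MSLN-KO, against 133.6, 128.4 and 136.9 CPM in WT. MSLN-KO replicate 3 lay above WT replicate 2, so the groups overlapped. The log2 change was -0.12 (95% interval -0.24 to 0.01, limma adjusted p = 0.11). TXN was called lower without MSLN-KO replicate 3 (log2 change -0.16, limma adjusted p = 0.033) and with the regional median subtracted (-0.17, limma adjusted p = 0.021), and the adjusted p ran from 0.021 to 0.36 across the alternatives. GENCODE 29 holds 7 pseudogenes named after TXN and 1 named after PRDX1. How reads that fit several places were counted is not given in the sources used here, so the values of both genes carry that uncertainty.

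PRDX1 (ENSG00000117450.15, chromosome 1, 45511036 to 45523047) had 242.4, 232.0 and 236.2 CPM in MSLN-KO, against 327.5, 328.6 and 341.8 CPM in WT. The groups were far apart compared with the spread inside them. MSLN-KO held 71.2% of the WT level (log2 change -0.49, SE 0.05, 95% interval -0.60 to -0.38, limma adjusted p = 5.6e-06). MMACHC, whose exons overlap PRDX1 on the opposite strand, had 13.7 CPM in MSLN-KO and 12.3 CPM in WT and was not called.

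SRXN1, the repair enzyme of peroxiredoxins (ENSG00000271303.2, chromosome 20, 646615 to 653370), had 30.3, 28.1 and 27.5 CPM in MSLN-KO, against 29.9, 31.5 and 31.6 CPM in WT. MSLN-KO replicate 1 lay inside the WT range. The log2 change was -0.11 with a 95% interval of -0.26 to 0.04 (limma adjusted p = 0.20), so a fall as large as that of PRDX1 lies outside its interval.

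NQO1, the quinone reductase gene (ENSG00000181019.13, chromosome 16, 69706996 to 69726951), changed most among the 10. It had 22.1, 21.4 and 22.7 CPM in MSLN-KO, against 35.3, 34.9 and 42.8 CPM in WT. The MSLN-KO libraries lay close together and all below WT, where replicate 3 was the highest. MSLN-KO held 58.6% of the WT level (log2 change -0.74, SE 0.08, 95% interval -0.92 to -0.56, limma adjusted p = 1.2e-05). NQO1 is on the chromosome of MSLN, but on its other arm, and its 89 listed neighbours within 5 Mb had a median log2 change of -0.02.

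**Figure D2:**
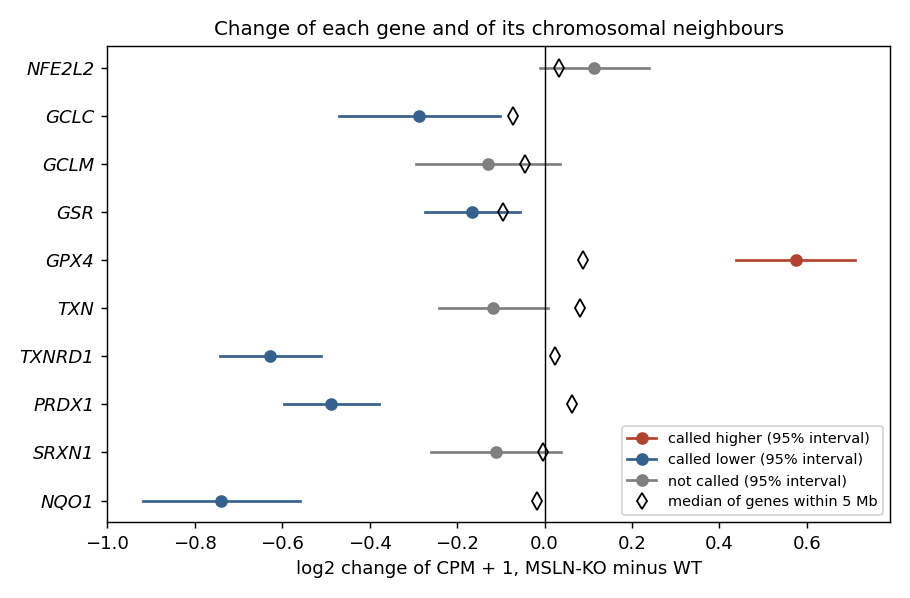
Log2 change of each gene, MSLN-KO minus WT on the log2(CPM + 1) scale, as a point with its 95% limma interval, and the median change of the other listed genes within 5 Mb as an open diamond. The intervals of NQO1, TXNRD1, PRDX1, GPX4, GCLC and TXN do not reach their neighbours' medians (-0.02, 0.02, 0.06, 0.09, -0.07 and 0.08), while those of GSR (-0.09), GCLM, SRXN1 and NFE2L2 hold theirs.

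The starts of 3 of these genes are shown for the antioxidant response element, the letters through which NRF2 acts: TXNRD1 and NQO1 as the largest falls, and GCLM as a known NRF2 target that was not called. RefSeq promoter windows (GRCh38.p14, 250 bases before to 50 after a start) were matched for 8 of the 10 genes, not for GSR and PRDX1. The core TGACNNNGC was searched on both strands. It was found in 3 of 12 windows, those of GCLM and of both TXNRD1 starts, and in 13.3% of all 35116 RefSeq windows. Sequences run 5′ to 3′ on the gene's strand in lower case, with the core in capitals. The first base of the core lay 34 bases upstream of the GCLM start, 99 and 8 bases upstream of one TXNRD1 start, and 102 bases upstream of the other.
GCLM, chr1:93909381-93909680, minus strand: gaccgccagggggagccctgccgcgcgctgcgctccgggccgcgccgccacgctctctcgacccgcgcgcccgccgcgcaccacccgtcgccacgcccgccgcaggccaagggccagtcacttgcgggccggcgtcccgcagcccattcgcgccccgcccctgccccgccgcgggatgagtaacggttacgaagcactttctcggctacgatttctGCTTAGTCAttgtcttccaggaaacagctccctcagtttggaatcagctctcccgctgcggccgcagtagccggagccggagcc
TXNRD1, chr12:104215529-104215828, plus strand: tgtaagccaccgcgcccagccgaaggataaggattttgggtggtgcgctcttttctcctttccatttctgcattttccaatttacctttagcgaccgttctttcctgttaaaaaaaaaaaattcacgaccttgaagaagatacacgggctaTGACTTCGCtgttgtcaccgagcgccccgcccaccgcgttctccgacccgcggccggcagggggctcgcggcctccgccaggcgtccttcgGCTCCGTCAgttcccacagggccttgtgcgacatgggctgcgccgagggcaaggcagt
TXNRD1, chr12:104286782-104287081, plus strand: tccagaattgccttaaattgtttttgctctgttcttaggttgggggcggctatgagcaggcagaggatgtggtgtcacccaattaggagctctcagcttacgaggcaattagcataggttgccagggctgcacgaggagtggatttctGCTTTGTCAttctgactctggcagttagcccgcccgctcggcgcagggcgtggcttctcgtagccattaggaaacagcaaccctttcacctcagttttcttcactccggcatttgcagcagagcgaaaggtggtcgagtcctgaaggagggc
NQO1, chr16:69726511-69726810, minus strand: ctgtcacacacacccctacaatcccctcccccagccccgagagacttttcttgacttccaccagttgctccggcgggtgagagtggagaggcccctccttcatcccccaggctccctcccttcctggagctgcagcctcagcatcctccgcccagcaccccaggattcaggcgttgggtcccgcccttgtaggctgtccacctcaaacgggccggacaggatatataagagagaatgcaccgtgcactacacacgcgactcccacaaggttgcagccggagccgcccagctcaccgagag
The capitals in GCLM and in the second TXNRD1 window are the core read on the opposite strand, as is the copy nearest the start in the first. NQO1, with the largest fall, held no copy in its window, and neither did the windows of NFE2L2, GCLC, TXN, GPX4 and SRXN1. Sequence more than 250 bases upstream was not searched, so an empty window does not show that a gene lacks the element. Gene-level values do not show which TXNRD1 start was used.

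Per kilobase of exon (GENCODE 29, all exons of a gene merged), PRDX1 and TXN were the most abundant of the 10 in both groups. Merged exons can be longer than the transcripts in use, so the order of genes also depends on this choice of length. PRDX1 stood at 155.6 ± 3.43 CPM per kb in MSLN-KO and 218.5 ± 5.21 CPM per kb in WT (SD, n = 3 each), and TXN at 107.3 ± 6.05 CPM per kb in MSLN-KO and 116.4 ± 3.76 CPM per kb in WT. GPX4 stood at 59.3 ± 2.91 CPM per kb in MSLN-KO, next below TXN, and at 39.7 ± 2.52 CPM per kb in WT, below GSR and TXNRD1 as well. TXNRD1 stood at 27.8 ± 0.62 CPM per kb in MSLN-KO and 43.1 ± 1.96 CPM per kb in WT. In WT, its mean and that of GPX4 differed by less than their SDs together, so their order there is not settled. GCLC was lowest at 3.04 ± 0.38 CPM per kb in MSLN-KO and 3.72 ± 0.12 CPM per kb in WT. GCLM was next at 3.61 ± 0.20 CPM per kb in MSLN-KO and 3.97 ± 0.19 CPM per kb in WT, and within each group it differed from GCLC by less than their SDs together. In WT, NFE2L2, NQO1 and SRXN1 lay between 11.5 and 13.4 CPM per kb, each within the summed SDs of the next. In MSLN-KO, NFE2L2 at 14.5 ± 0.31, SRXN1 at 10.6 ± 0.55 and NQO1 at 6.78 ± 0.19 CPM per kb were separated by more than that.

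**Figure D3:**
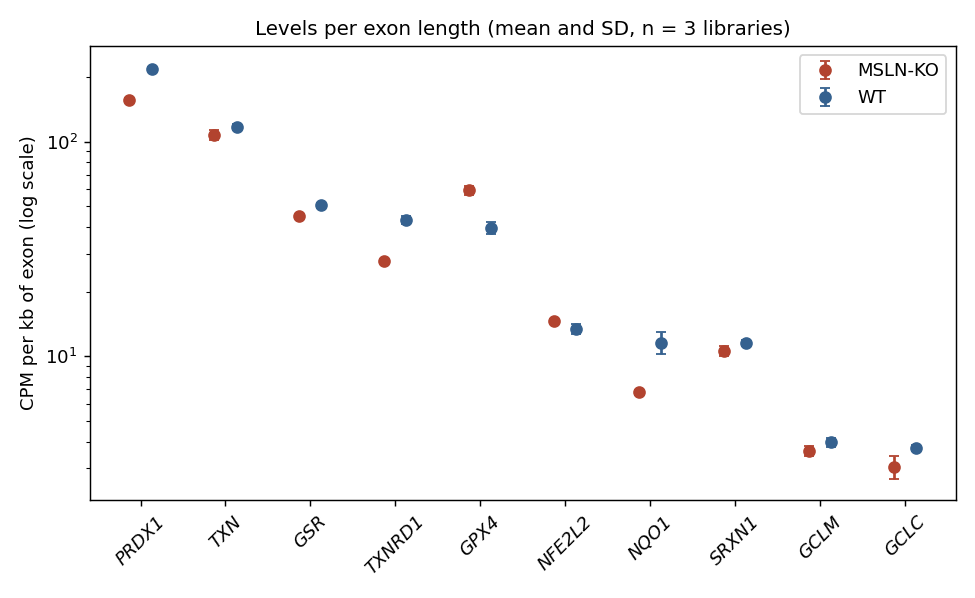
Mean level of each gene in CPM per kb of exon on a log axis, MSLN-KO left of WT within each pair, with SD over 3 libraries. PRDX1 is highest in both groups (155.6 in MSLN-KO and 218.5 in WT). GPX4 lies above TXNRD1 and GSR in MSLN-KO and below GSR in WT, where its order with TXNRD1 is not settled.

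The other genes of these pathways are given by list, and each count is to be read beside the 22.4% of all genes called higher and the 23.3% called lower. The table holds genes that reached at least 4.9 CPM in 3 libraries. A group is taken to reach this minimum if at least 1 of its libraries did. A gene that reached it in 1 group only had to be higher there to be measured. This was the case for none of the 10 genes, but for CBS, GGT5, CHAC1, HMOX1, GPX3 and PTGS2 among the called genes of the lists. Their differences are given as values, and the counts are given without them too. MAFF and EPHX1 reached 4.9 CPM in every MSLN-KO library but, in WT, in replicate 2 only. Both stay in the counts, but they were measured through their MSLN-KO libraries, so their direction does not count as support. Of 14 regulators and partners of NRF2 measured, 4 rose, 2 fell and 8 were not called (median log2 change 0.03, beside 0.01 for all genes), shares close to those over all genes. KEAP1, the inhibitor that marks NRF2 for degradation, had 54.4 ± 4.62 CPM in MSLN-KO and 54.7 ± 5.09 CPM in WT and was not called; KEAP1 is named here after its values were seen. NFE2L1, a related factor of the same family, had 148.6 ± 5.84 CPM in MSLN-KO and 108.0 ± 2.56 CPM in WT (log2 change 0.46, limma adjusted p = 1.8e-05). The small Maf partner gene MAFF rose by 0.33, a call lost without MSLN-KO replicates 1 or 3, without WT replicates 1 or 3 and with the regional median subtracted (limma adjusted p between 0.064 and 0.17, in a range of 0.024 to 0.17 over all alternatives). With each of those 4 libraries left out in turn, 2 of the list were called higher. NFE2, another related factor, and RBX1, a ubiquitin ligase subunit, fell by 0.26 and 0.20 on the log2 scale.

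Of 22 other NRF2 target genes measured, 4 rose, 6 fell and 12 were not called, with a median log2 change of -0.08, again close to the shares over all genes (22.4% higher and 23.3% lower). Among the 20 that reached the minimum of the table in at least 1 library of each group, 4 rose and 5 fell. These rises include EPHX1, which had 4.00, 5.03 and 4.72 CPM in WT and so reached it there in replicate 2 only. HMOX1, the haem oxygenase that degrades haem, had 1.51, 1.36 and 1.54 CPM in MSLN-KO, against 5.10, 6.27 and 7.41 CPM in WT. All its MSLN-KO libraries were lower, at 23.5% of the WT level in the mean, and it was measured only because its WT libraries reached 4.9 CPM. BLVRA, the biliverdin reductase that acts on the product of haem oxygenase, had 19.3 ± 1.58 CPM in MSLN-KO and 39.8 ± 2.19 CPM in WT (limma adjusted p = 3.6e-07). TRIM16 rose 1.69-fold and the epoxide hydrolase gene EPHX1 1.42-fold, with EPHX1 losing its call without MSLN-KO replicate 2 (limma adjusted p = 0.051, in a range of 0.0065 to 0.051 over all alternatives). Without that library 2 of the list were called higher. TRIM16 has a close copy, TRIM16L, and counting could have split reads between them.

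Of 12 measured genes around glutathione synthesis and turnover, 9 reached the minimum of the table in both groups. Of these 9, 4 rose, 2 fell and 3 were not called (median log2 change 0.04). The other 3, CBS, GGT5 and CHAC1, reached it in MSLN-KO only and were called higher. CBS, an enzyme of the route from methionine to cysteine, had 10.3, 9.08 and 8.86 CPM in MSLN-KO, against 0.0408, 0.116 and 0.253 CPM in WT. Its WT libraries were close to silent. CBS has a near-identical annotated copy, CBSL, so its reads may have been split. GGT5, a gamma-glutamyl transferase, had 9.90 ± 0.63 CPM in MSLN-KO and 0.642 ± 0.215 CPM in WT.

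Named after their values were seen, the cystine importer genes SLC7A11 and SLC3A2 rose 1.86-fold and 2.46-fold. CHAC1, which breaks glutathione down, was 4.68-fold higher in MSLN-KO, while its chromosome 15 neighbours within 5 Mb had a median log2 change of -0.58. GSS, named in the same way, the second enzyme of glutathione synthesis, had 49.7 ± 3.48 CPM in MSLN-KO and 54.5 ± 0.61 CPM in WT and was not called. The falls were of LAP3, a peptidase (81.1% of WT), and of GGT1 (76.4% of WT). The GGT1 call was lost without WT replicate 1 (limma adjusted p = 0.057, in a range of 0.0012 to 0.057 over all alternatives), which leaves 1 fall in the list, and GGT1 too has close copies.

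Among 16 glutathione peroxidases and transferases, 2 rose, 8 fell and 6 were not called (median log2 change -0.04). The falls include GPX3, which reached the minimum of the table in WT only, and without it 7 fell (median log2 change 0.06). The 8 falls became 4 or 5 without MSLN-KO replicates 1, 2 or 3 or WT replicates 1 or 3, and 4 with columns rescaled to their totals. GPX7, a peroxidase of the endoplasmic reticulum, had 17.0 ± 1.55 CPM in MSLN-KO and 32.4 ± 2.43 CPM in WT, and the secreted peroxidase gene GPX3 held 47.8% of its WT level. GPX1, the cytosolic glutathione peroxidase and like GPX4 a selenoprotein, rose 1.22-fold (387.9 ± 33.6 CPM in MSLN-KO and 318.8 ± 21.1 CPM in WT, limma adjusted p = 0.0060). GSTK1 rose 1.31-fold.

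Of 25 other thioredoxins, peroxiredoxins, glutaredoxins and related genes, 4 rose, 9 fell and 12 were not called (median log2 change -0.08). SESN2, a stress-induced sestrin, had 34.8 ± 1.68 CPM in MSLN-KO and 12.3 ± 1.73 CPM in WT, while its relative SESN3 had 65.4 ± 3.00 CPM in MSLN-KO and 147.3 ± 9.73 CPM in WT. TXNIP, the inhibitor that binds thioredoxin, rose 1.90-fold (1021 ± 50.2 CPM in MSLN-KO and 536.3 ± 89.1 CPM in WT). MSRB3, a methionine sulfoxide reductase, held 34.5% of its WT level. Among the relatives of PRDX1 and TXNRD1, named after their values were seen, PRDX4 held 52.3% of WT, PRDX2 74.8% and PRDX5 88.2%, and all 3 were called lower. PRDX3 and PRDX6, at 92.7% and 100.3% of WT, were not called. Mitochondrial TXNRD2 was not called (log2 change 0.03), and TXNRD3 fell to 70.3% of WT.

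**Figure D4:**
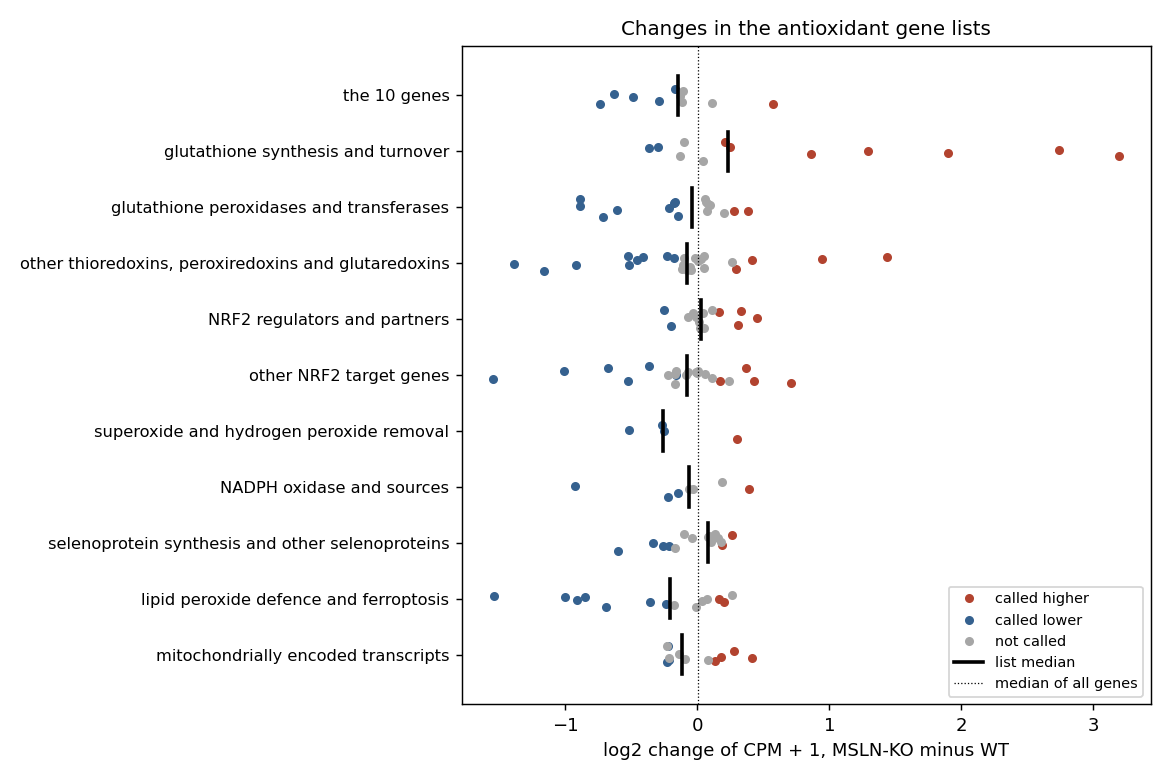
Log2 change (MSLN-KO minus WT, log2(CPM + 1) scale) of every measured gene in each list, coloured by its limma call, with a bar at the list median and a dotted line at the median of all genes (0.01). The 10 genes are the top row, where 1 point is called higher and 5 lower, and the points farthest right, CBS and GGT5 in glutathione synthesis and turnover, reached the minimum of the table in MSLN-KO only.

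Genes for the removal of superoxide and hydrogen peroxide had 1 rise and 3 falls among 4 measured (median log2 change -0.26). Catalase (CAT) had 1158, 1146 and 1096 CPM in MSLN-KO, against 1585, 1592 and 1698 CPM in WT, with no overlap (limma adjusted p = 1.6e-05). PARK7 fell to 82.7% of WT. CCS, the copper chaperone of SOD1, rose 1.26-fold, a call lost without MSLN-KO replicate 1, MSLN-KO replicate 3 or WT replicate 2 (limma adjusted p = 0.081, 0.075 and 0.072, in a range of 0.0092 to 0.081 over all alternatives). Without each of these libraries limma called 0 rises in the list, with 1 at an unadjusted p under 0.05.

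Genes of the phagocyte NADPH oxidase, a source of superoxide, had 1 rise and 3 falls among 7 (median log2 change -0.06). The subunit gene NCF4 had 159.2 ± 5.12 CPM in MSLN-KO and 121.6 ± 10.3 CPM in WT. CYBB, the catalytic subunit, fell to 85.5% of WT. Its call was lost without MSLN-KO replicate 1, without WT replicate 3, with columns rescaled to their totals, with no intensity trend and with the regional median subtracted (limma adjusted p between 0.052 and 0.14, in a range of 0.010 to 0.14 over all alternatives), and 1 fall was then called in the list. With columns rescaled, without MSLN-KO replicate 3 and without WT replicate 1, 2 rises were called.

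Since GPX4 and TXNRD1 both need selenocysteine, the genes of selenoprotein synthesis and other selenoproteins were read beside them. Of 16 measured, 2 rose, 4 fell and 10 were not called (median log2 change 0.08). SELENOS fell to 64.0% of WT. It lies on chromosome 15, where its neighbours within 5 Mb had a median log2 change of -0.45, and with the regional median subtracted its log2 change was -0.10 (limma adjusted p = 0.35, in a range of 5.9e-05 to 0.35 over all alternatives). SELENOO fell to 77.6% of WT. The rises of TRNAU1AP (1.22-fold), a factor of selenocysteine insertion, and SELENOH (1.14-fold) were small. TRNAU1AP kept its call only without MSLN-KO replicate 2 among the fits that leave out 1 library (limma adjusted p between 0.074 and 0.16 in the other 5), and SELENOH lost its call without MSLN-KO replicate 1 (0.097) and WT replicate 3 (0.10). Over all alternatives these ranged from 0.011 to 0.16 and from 0.011 to 0.10. The count of rises by limma was 0 without MSLN-KO replicate 1 (1 at an unadjusted p under 0.05), 1 without any 1 of the WT replicates, and 4 with the regional median subtracted.

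Of 14 genes of lipid peroxide defence and ferroptosis, the field of GPX4, 2 rose, 7 fell and 5 were not called (median log2 change -0.21). Without PTGS2, which reached the minimum of the table in WT only, 6 fell. TFRC, the transferrin receptor that brings iron into cells, had 164.8, 170.1 and 151.4 CPM in MSLN-KO, against 448.6, 459.2 and 514.9 CPM in WT, and SLC40A1, the iron exporter ferroportin, held 49.1% of its WT level. The groups stood far apart for TFRC (limma adjusted p = 1.2e-09). ACSL4, which loads membranes with oxidizable fatty acids, rose 1.12-fold and the lipoxygenase gene ALOX5 1.16-fold. Both calls were lost without MSLN-KO replicates 1 or 2 or WT replicate 3, ALOX5 also without MSLN-KO replicate 3, and ACSL4 also without WT replicate 1 and with no intensity trend. The limma adjusted p-values were then between 0.056 and 0.11, in ranges of 0.012 to 0.090 for ALOX5 and 0.0038 to 0.11 for ACSL4 over all alternatives, and limma called 0 or 1 rises in the list (1 to 3 at an unadjusted p under 0.05).

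Of 12 mitochondrially encoded transcripts, read for RNA quality, 4 rose, 3 fell and 5 were not called (median log2 change -0.12). MT-ND3 rose 1.33-fold and MT-ND2 1.22-fold, while MT-CO2 held 85.1% and MT-ND4 85.5% of WT. MT-ND4 lost its call without MSLN-KO replicate 1, WT replicate 2 or WT replicate 3 (limma adjusted p = 0.061, 0.057 and 0.093, in a range of 0.0011 to 0.093 over all alternatives), and without each of these 1 fall was called. Without WT replicate 1 the list had 5 falls and 2 rises, without MSLN-KO replicate 2 it had 2 rises, and with the regional median subtracted 6 falls.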

How the data were processed

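Total RNA was sequenced as stranded, ribosome-depleted libraries, per the labels' protocols. The submitters' processing notes name STAR, featureCounts, edgeR and GRCh38/hg38, with no versions in the sources used here. The authors deposited 1 table of TMM-normalized CPM per gene and library, and the unit follows from column totals between 967718 and 1009572. Every value was a whole multiple of 1 step per column (within 0.01 of that step), which gave the depths. Genes reached at least 4.9 CPM in 3 libraries, so lower genes were not analysed here. Depth limits little for the 10 genes, since each had at least 492 reads.

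MSLN-KO was compared with WT in limma 3.58.1 (R 4.3.3; lmFit, eBayes with intensity trend) on log2(CPM + 1), all 6 libraries, no covariates, two-sided, Benjamini-Hochberg over 11363 genes. The minimum mean of 0.5 CPM removed no gene. Log2 changes are on that scale, which understates low genes; folds and percentages are ratios of mean CPM. The fit was tested on simulated data with far fewer changed genes than were called here, so that test lends no support to these calls. Symbols matched 11354 and GENCODE 29 coordinates 11314 genes, 1-based. The 10 genes and all lists were chosen with earlier results of these data known. Named are the 10 genes, MSLN, and the 2 largest called rises and falls of each list; others are marked, and a gene that the rule names is not reported here. Within a group, libraries differed by more than counting error (chi-square over degrees of freedom 2.71 to 14.8). Alternatives changed the pseudocount, filter, scaling, trend and block, and left out each library. The regional median (other listed genes within 5 Mb) was subtracted in an alternative chosen after seeing the data.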

Additional observations from a re-analysis of the deposited data

How the results depend on the processing

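Under the 14 alternatives, the count of the 10 genes called higher was 1 except without WT replicate 2, and ranged from 1 to 2 over the fits that left out 1 library. The count called lower ranged from 3 to 6 over those fits, with 3 without MSLN-KO replicate 1 and 3 without WT replicate 3. Over all genes, leaving out 1 library gave 1947 to 2486 calls higher and 2139 to 2628 lower, and rescaling columns to their totals gave 2942 higher and 2278 lower, beside 2545 and 2652. No log2 change of the 10 genes, of MSLN or of the 38 other genes that the rule picks reversed under any alternative run. Of those 38, 25 kept their call under all 14 alternatives, among them GGT5 and GPX3. CBS and HMOX1 kept theirs under the 13 run for them, since their means lie under the minimum of 5 CPM. GGT5, GPX3, CBS and HMOX1 reached the minimum of the table in 1 group only. They could be measured only if higher there, so neither their direction nor their kept calls count as support. The difference in the GCLM to GCLC ratio ranged from 0.11 to 0.22 on the log2 scale over the fits that left out 1 library. Replicate numbers come from the sample titles, and nothing says that they pair libraries. The correlation across genes of the deviations of same-numbered libraries was 0.19, -0.17 and -0.09 for numbers 1 to 3, and MSLN-KO replicate 2 correlated best with WT replicate 1, so the numbers were not taken as pairs. With the replicate block, 2413 genes were called higher and 2533 lower, with 1 higher and 5 lower among the 10. With the block MAFF was not called (limma adjusted p = 0.055) and 5 falls were called among glutathione peroxidases and transferases, beside 8 without it.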
